A study of Mus musculus with 10 samples.

Results

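Complex I (NADH:ubiquinone oxidoreductase) is the entry point for electrons from NADH into the respiratory chain. Its subunits are encoded in part by mitochondrial DNA and in larger part by nuclear genes, whose products are imported and joined by assembly factors that are absent from the finished enzyme. The 48 nuclear genes described here were 35 subunits and 13 assembly factors, found by their symbols among the 55414 genes counted, and all 48 passed the filter on low counts and were among the 17690 genes tested. The expression of each was compared between Cre- and Cre+ mice, and that of subunits was set beside that of assembly factors.

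Interscapular brown adipose tissue (iBAT) was taken from male C57BL/6J mice aged 12 to 14 weeks on normal chow. All were flox/flox for RetSat, the gene of retinol saturase, and 5 of them also carried Ucp1-Cre (Cre+) while the other 5 did not (Cre-). Cre driven by the Ucp1 promoter is active in brown adipocytes, so other cells of the tissue keep RetSat. RNA was sequenced after poly(A) selection, one library per mouse, and p-values therefore describe the spread between these single-mouse libraries.

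Libraries held 91903095 to 132499312 counts in Cre- and 96991071 to 110293494 counts in Cre+ mice. Levels are given as CPM, counts scaled to a common library size by TMM factors. RetSat fell in Cre+ mice from 185 ± 42.3 to 23.9 ± 8.63 CPM (SD, n = 5 per group, adjusted p = 0.00402 by edgeR). All 9 brown adipocyte markers were detected in every library, with a summed level of 7468 to 9461 CPM in Cre- and 7635 to 10522 CPM in Cre+ mice. Ucp1 held much of this sum, with means of 4222 and 4785 CPM, so it does not show single markers. By edgeR 0 of the 9 were called. Prdm16 and Adrb3 were higher in Cre+ mice (log2 fold change 0.52 and 0.45, unadjusted p = 0.00981 and 0.0151 by edgeR). Ebf2 was lower (-0.58, unadjusted p = 0.0364 by edgeR). By edgeR, 12.3% of all genes tested had an unadjusted p under 0.05. The 10 skeletal muscle markers summed to 560 CPM in Cre- replicate 2 and 276 CPM in Cre+ replicate 4, against 1.45 to 20.8 CPM elsewhere, and Myh4, Myh1, Ckm and Pvalb were at 0 in some libraries. The identifiers of 3 Cre+ libraries (replicates 1, 4 and 5) carry an added letter whose meaning the labels do not state, and no Cre- library has one. Results that rest on these libraries are therefore given with and without them. In such bulk samples, fewer cells of a type and less RNA per cell cannot be told apart.

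No nuclear complex I gene was called different between genotypes. Of the 48 members, 0 had an adjusted p under 0.05 in the quasi-likelihood test of edgeR (adjusted by Benjamini-Hochberg), against 29 of the 17690 genes tested (0.164%), and DESeq2 also called 0 members, against 1.22% of all genes it tested. At an unadjusted p under 0.05, Ndufa10 was lower in Cre+ mice and no member was higher, by either tool. Of the 17690 genes tested by edgeR, 5.95% were lower and 6.40% higher (12.3% in all). DESeq2 tested 32289 genes without the filter on low counts, and 7.91% of these passed. Among the same 17690 genes, 2309 passed and 392 were called by DESeq2. Without the 2 libraries highest in muscle markers, Ndufa10 (unadjusted p = 0.0615 by edgeR) no longer passed. Ndufb6, Nubpl and Ndufaf4 were then higher at unadjusted p = 0.0295, 0.0348 and 0.0420 by edgeR. In that setting 0 members were called, against 289 of 17821 genes tested. The share of all genes at an unadjusted p there is not given, so these 3 are not read as a result about the members. The groups overlapped for all 48 members, and did not for 2.67% of all genes.

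The estimates were small and their intervals narrow. The log2 fold changes of the 35 subunits ran from -0.18 to 0.23 with a median of 0.05, and 25 were positive, where 50.3% of all genes tested were positive and the median over all genes was 0.00. The 13 assembly factors ran from -0.19 to 0.15 with a median of 0.06, and 8 were positive. The 95% intervals reached 0.12 to 0.27 to either side, and none extended beyond -0.39 or 0.46 on the log2 scale. A p above the threshold does not show equal levels. In the fit of all 10 libraries, larger differences than these lay outside the intervals of every member, each taken for a single gene. These bounds do not cover the fit without the 3 Cre+ libraries whose identifiers carry a letter. There, Ndufaf6 had -0.23 (SE 0.12) and Ndufaf4 0.23 (SE 0.13), the lowest and highest of the assembly factors.

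**Figure D1:**
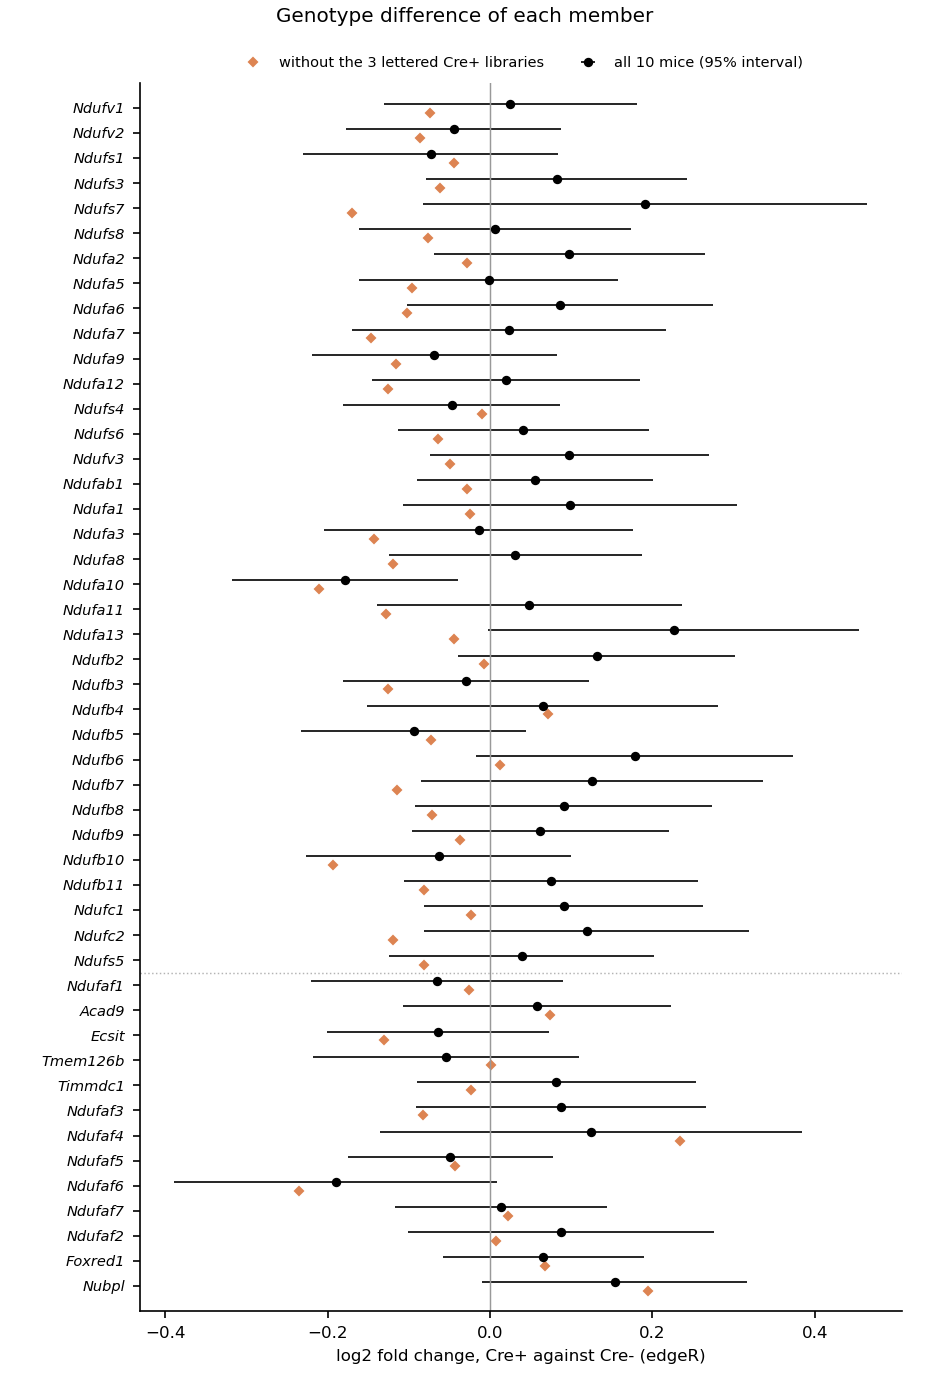
Log2 fold change of Cre+ against Cre- mice (x axis) for each nuclear complex I gene, subunits above the dotted line and assembly factors below it. Black points and bars are the edgeR estimates with 95% intervals from 10 mice, orange diamonds the estimates without the 3 lettered Cre+ libraries. The bars of 47 genes cross 0, and the diamonds of 33 of 35 subunits lie below it.

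The core subunits carry the redox centres and are conserved in bacteria. Among the 6 measured here, Ndufv1, which binds NADH and the flavin, stood at 1001 ± 68.3 CPM in the Cre- group against 1019 ± 71.6 CPM (SD, n = 5 per group), a log2 fold change of 0.03. Its iron-sulfur partner Ndufv2 had -0.04, and Ndufs1, which holds further iron-sulfur clusters of the matrix arm, had -0.07. Ndufs3, Ndufs7 and Ndufs8 of the ubiquinone-binding module had 0.08, 0.19 and 0.01. With all libraries, the core subunits had a median of 0.02, and 4 of 6 were positive.

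Accessory subunits surround the core and are needed for assembly and stability. The 9 of the matrix arm stayed between -0.07 (Ndufa9) and 0.10 (Ndufa2 and Ndufv3), with a median of 0.02. Ndufs4 and Ndufs6, whose loss impairs the joining of the NADH-binding module in mouse and human cells, had -0.05 and 0.04. Ndufab1, the mitochondrial acyl carrier protein found in both arms, had 0.06. The 19 of the membrane arm covered the whole span of the subunits, from Ndufa10 (-0.18) to Ndufa13 (0.23). With all libraries, their median was 0.06 and 14 values were positive.

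Assembly factors were ordered by the intermediate on which they act. The 5 factors of the membrane arm intermediate (Ndufaf1, Acad9, Ecsit, Tmem126b and Timmdc1) had a median of -0.05, those of the ubiquinone-binding module (Ndufaf3 to Ndufaf7) 0.01, and the late or iron-sulfur factors Ndufaf2, Foxred1 and Nubpl 0.09. Foxred1, a flavoprotein, had the highest CPM of them with 144 ± 5.75 in Cre- against 150.2 ± 5.73 in Cre+ mice (SD, n = 5 per group), and its log2 fold change of 0.07 had a 95% interval from -0.06 to 0.19. Ndufaf5 and Ndufaf7, which in human cells hydroxylate and methylate arginines of core subunits, had -0.05 and 0.01.

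Ndufa10, an accessory subunit of the membrane arm that resembles nucleoside kinases and lies on its matrix side, had the smallest p of the 48. Its level was 810.5, 898, 801, 934 and 892 CPM in Cre- and 804, 756, 748, 745 and 777 CPM in Cre+ mice. A single Cre+ mouse, replicate 1, reached above the lowest Cre- mouse, and the other 4 lay below all Cre- mice. The estimated log2 change was -0.18 (SE 0.06, unadjusted p = 0.0158 and adjusted p = 0.285 by edgeR). It was -0.21 (adjusted p = 0.497 by edgeR) without the lettered libraries. The gene (ENSMUSG00000026260.13) spans bases 92366732 to 92401582 of chromosome 1 in GRCm39 and shares no exon bases with other genes.

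Ndufa13, also known as GRIM-19, is a membrane arm subunit that in human cells has been tied to cell death as well. Its level was 248, 277.5, 232, 269.7 and 240.5 CPM in Cre- mice, and 335, 234, 259.5, 303 and 351 CPM in Cre+ mice. The 3 highest values were those of the lettered Cre+ libraries, and the other 2 Cre+ values lay within the Cre- range. The log2 fold change was 0.23 (SE 0.11, adjusted p = 0.412 by edgeR), and -0.04 without the lettered libraries. The gene (ENSMUSG00000036199.10, chromosome 8 of GRCm39, 70346830 to 70355208) shares 30.0% of its exon bases with Tssk6, a kinase gene of the testis, and counting without strand does not separate reads of such shared stretches.

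The 250 bases upstream of the RefSeq start sites of Ndufa10 and Ndufa13 (GRCm38.p6, minus strand, at chr1:92473759-92474008 and chr8:69902021-69902270) are shown because these subunits had the lowest and the highest log2 fold change of the subunits. Capitals mark CpG dinucleotides, of which the stretches hold 22 and 16, at 57.6% and 64.0% G+C.
Ndufa10: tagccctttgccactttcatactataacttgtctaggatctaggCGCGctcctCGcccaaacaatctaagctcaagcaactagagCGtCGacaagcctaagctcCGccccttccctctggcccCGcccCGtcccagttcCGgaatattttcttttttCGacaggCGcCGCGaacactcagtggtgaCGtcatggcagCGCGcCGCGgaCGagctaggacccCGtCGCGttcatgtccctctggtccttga
Ndufa13: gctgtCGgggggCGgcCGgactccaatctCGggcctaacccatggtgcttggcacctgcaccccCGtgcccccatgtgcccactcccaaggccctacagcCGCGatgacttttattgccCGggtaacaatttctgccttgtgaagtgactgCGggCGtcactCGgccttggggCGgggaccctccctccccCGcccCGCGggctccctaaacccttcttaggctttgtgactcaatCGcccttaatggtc

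The other members with a small p were Ndufaf6, Nubpl, Ndufb6 and Ndufb2. Ndufaf6, a phytoene synthase-like factor of the ubiquinone-binding module, had 13.3, 16.2, 14.3, 14.6 and 12.5 CPM in Cre- mice and 11.5, 12.4, 11.8, 14.1 and 12.5 CPM in Cre+ mice. Apart from Cre+ replicate 4, the Cre+ mice lay at or below the lowest Cre- mouse, and the log2 fold change was -0.19 (SE 0.09, adjusted p = 0.427 by edgeR). Nubpl, which delivers iron-sulfur clusters to complex I, had 17.5, 20.4, 20.5, 19.2 and 17.1 CPM in Cre- mice and 21.2, 22.4, 21.1, 19.96 and 20.6 CPM in Cre+ mice. Here 4 of the 5 Cre+ mice lay above all Cre- mice, at 0.15 on the log2 scale (SE 0.08, adjusted p = 0.433 by edgeR), and 0.19 without the lettered libraries.

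Ndufb6, a small membrane arm subunit, had 207.5, 269.8, 217, 242 and 238 CPM in Cre- mice and 295, 241, 235, 262 and 297 CPM in Cre+ mice. Lettered replicates 1 and 5 were its highest Cre+ values and the only ones above the Cre- range. The log2 change was 0.18 (SE 0.09, adjusted p = 0.447 by edgeR), and 0.01 without the lettered libraries. Ndufb6 shares 39.0% of its exon bases with Smim27. Ndufb2, another small subunit of this arm, had 63.4, 78.7, 64.7, 70.8 and 68.3 CPM in Cre- mice and 81.8, 69.0, 69.1, 76.1 and 82.8 CPM in Cre+ mice, with the same pair of libraries highest. For it the log2 change was 0.13 (SE 0.08, adjusted p = 0.530 by edgeR), and -0.01 without the lettered libraries.

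**Figure D2:**
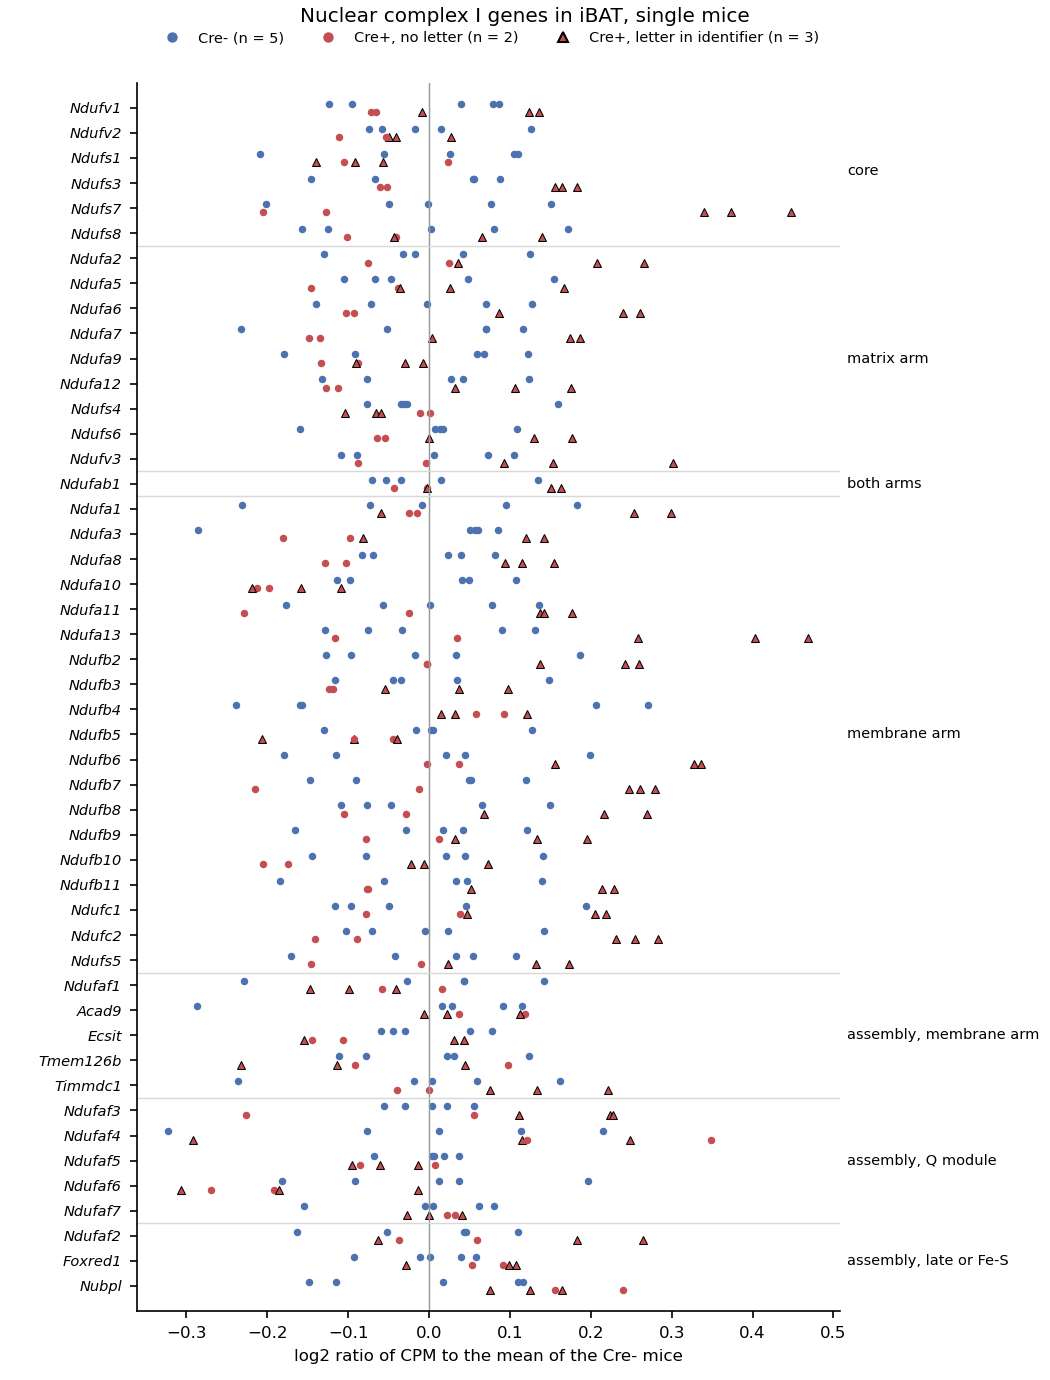
CPM of each gene in each mouse relative to the Cre- mean (x axis, log2 ratio), with genes ordered by role. Circles are Cre- mice (blue) and the other Cre+ mice (red), triangles the 3 lettered Cre+ libraries. The triangles lie to the right of both red circles for 27 of 35 subunits and 2 of 13 assembly factors.

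The spread inside the Cre+ group followed the lettered libraries for subunits. All 3 lettered libraries lay above both others for 27 of the 35 subunits and below both for 1 (Ndufs4), whereas 12.0% of all genes tested had the first order and 11.3% the second. For assembly factors the first order held for 2 of 13 (Timmdc1 and Ndufaf3) and the second for 0. The median log2 difference of lettered minus other Cre+ libraries was 0.20 for subunits, from -0.07 to 0.55, and -0.02 for assembly factors, from -0.20 to 0.27. By role, 4 of 6 core subunits, 7 of 9 accessory subunits of the matrix arm, Ndufab1 and 15 of 19 of the membrane arm had the first order. The subunits rose and fell together across all libraries of both genotypes. The log2 level of a subunit correlated with that of the summed other subunits at a median r of 0.83, above 0.5 for 30 of 35. The subunits are therefore not independent observations, and the count of 27 describes largely 1 shared order of libraries.

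Ndufs7, the core subunit that binds the iron-sulfur cluster next to ubiquinone, had the widest difference and was singled out after its values were seen. It had 339, 322, 295, 305 and 266 CPM in Cre- mice, 387, 417 and 396 CPM in the lettered and 265 and 279.6 CPM in the other Cre+ libraries. The lettered libraries lay above every Cre- mouse, and 1 of the others below. The log2 fold change was 0.19 (SE 0.13, adjusted p = 0.579 by edgeR) with all mice and -0.17 without the lettered libraries.

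Without these 3 libraries, 33 of the 35 subunits had a negative log2 fold change, the exceptions being Ndufb4 and Ndufb6. Their median went from 0.05 to -0.08, with a range from -0.21 to 0.07. The median over all 18715 genes tested in that setting was -0.0044, and the share of them that were negative is not given here. The lowest adjusted p among subunits was then 0.497 by edgeR, so no subunit was called with either set of libraries. For the assembly factors, 6 of 13 were negative and the median was 0.00. The 2 other Cre+ libraries averaged below the Cre- mean for 33 of 35 subunits, and the lettered libraries above it for 29. By role, the 2 others averaged below it for 6 of 6 core subunits, 9 of 9 of the matrix arm, Ndufab1 and 17 of 19 of the membrane arm. No share over all genes is given for these counts and the subunits varied together, so they are descriptions only. The letter occurs only in Cre+ libraries, so across the whole comparison what it stands for and the genotype cannot be told apart.

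Genes with a higher share of G and C had larger differences between lettered and other Cre+ libraries. Across the 48 members, the G+C content of the principal transcript correlated with that difference at Pearson's r = 0.75 and Spearman's rho = 0.70, and transcript length at r = -0.64. The correlation with G+C was 0.65 within the 35 subunits and 0.86 within the 13 assembly factors. For all genes the longest transcript of each was used, not the principal one, so the measure differs from that of the members. Over 17627 genes with a transcript (99.64% of those tested), the correlation was 0.27 (rho 0.38) for G+C and -0.02 for length. The G+C content correlated with the genotype log2 fold change at r = 0.29 over the 48 members with all libraries and at r = -0.50 without the lettered ones. The same pair of values was 0.47 and -0.24 for subunits and -0.25 and -0.72 for assembly factors. With all libraries, rho was 0.27 for the 48 members and 0.25 over the 17627 genes (r = 0.17). The value over all genes without the lettered libraries is not given. These are correlations across genes measured in the same libraries, which are not independent, and the part of base composition in the difference was not tested.

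**Figure D3:**
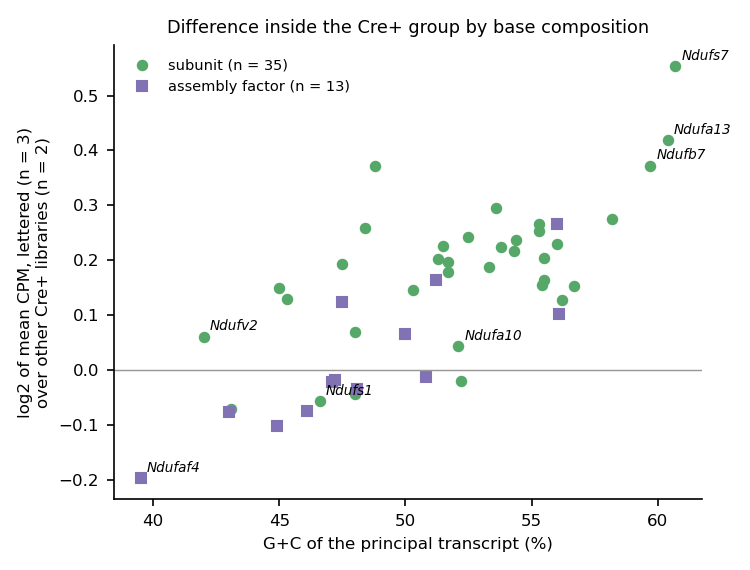
Log2 of the mean CPM in the 3 lettered over the 2 other Cre+ libraries (y axis) against the G+C percent of the principal transcript (x axis). Circles are subunits and squares assembly factors. Ndufs7, Ndufa13 and Ndufb7, all near 60% G+C, stand highest among the labelled genes, and Ndufaf4 at 39.5% lowest. Ndufc2, not labelled, has 48.8% G+C and a difference of 0.37, the same as Ndufb7.

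Subunit transcripts were far more abundant than those of assembly factors. As CPM per kilobase of summed exon length, the subunits had a median level of 203 in Cre- and 219 in Cre+ mice, and the assembly factors 15.2 and 14.7, so that the ratio of the medians was 13.3 in Cre- and 14.9 in Cre+ mice. The higher Cre+ level of subunits rested on the lettered libraries. Taken in each library, the median over subunits averaged 202 in Cre-, 232 in lettered and 197 in the other Cre+ libraries. For assembly factors it averaged 14.7, 14.1 and 14.8 in the same order. The median over all genes tested was 1.71 in Cre- mice. Of the 35 subunits, 32 exceeded the most abundant assembly factor, and Ndufab1, Ndufb2 and Ndufb4 did not. With the length of the principal transcript in place of the summed exon length, Ndufb4 was the exception that remained and the ratio was 14.4. These levels are descriptions, since subunits and factors are different genes and not replicates.

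The extremes were as follows, in CPM per kilobase. Ndufa1, a short membrane arm subunit of 70 residues encoded on the X chromosome, was highest with 678, 774, 581, 728 and 648 in Cre- and 812, 670.1, 675, 654 and 838.5 in Cre+ mice, and the groups overlapped widely. Ndufb2 was the lowest subunit with 11.3, 14.0, 11.5, 12.6 and 12.1 in Cre- and 14.5, 12.3, 12.3, 13.5 and 14.7 in Cre+ mice. Its summed exon length of 5628 bases far exceeds its principal transcript of 455 bases, and by the latter length its level was 152 and Ndufb4 was lowest with 25.5. The top of the order also depended on this choice, since Ndufb8 then led with 1028 against 682 for Ndufa1.

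Among assembly factors, Ecsit was highest. This factor of the membrane arm intermediate, known in the mouse also from innate immune signalling, had 38.8, 42.7, 39.2, 41.9 and 39.6 CPM per kilobase in Cre- and 36.3, 36.6, 37.6, 41.3 and 41.7 in Cre+ mice. It shares 24.0% of its exon bases with Gm16845. Nubpl was lowest, with 3.53, 4.12, 4.14, 3.87 and 3.45 in Cre- and 4.29, 4.52, 4.26, 4.03 and 4.17 in Cre+ mice. Both kept these places with either length.

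**Figure D4:**
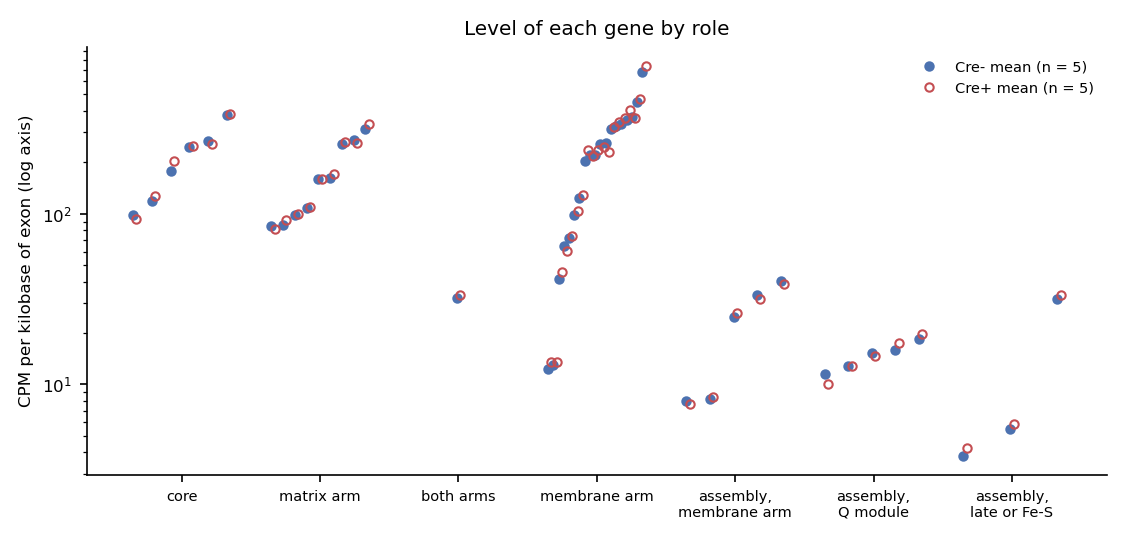
CPM per kilobase of summed exon length (y axis, log scale) of each gene, grouped by role. Filled circles are Cre- means and open circles Cre+ means (n = 5 each, no error bars). The Cre+ means include the lettered libraries. Subunits have a median near 203 and assembly factors near 15.2 in Cre- mice, and filled and open circles lie close together.

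The median coefficient of variation of CPM was 7.43% in Cre- and 8.63% in Cre+ mice for subunits, and 7.26% and 6.73% for assembly factors. Single subunits ranged from 4.92% to 16.7% (Ndufb4) in Cre- and from 2.95% to 20.3% (Ndufs7) in Cre+ mice, and assembly factors from 2.73% to 13.7% and from 1.90% to 15.7%. For all genes tested with more than 10 CPM in Cre- mice it was 8.0% and 10.5%. The lowest count of any member in any library was 1185, for Ndufaf6.

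Summed over each library, the 35 subunits reached 11146 ± 653 CPM in the Cre- and 11305 ± 800 CPM in the Cre+ group (SD, n = 5 per group). The lettered libraries had 11275 to 12210 and the other Cre+ libraries 10500.3 and 10532, where Cre- mice ran from 10329 to 12064. The 13 assembly factors had 660.1 ± 36.3 and 673 ± 22.1 CPM. The ratio of the sums of subunits to assembly factors was 16.9 ± 0.87 in Cre- and 16.8 ± 1.11 in Cre+ mice. It was 17.2 to 18.1 in the lettered and 15.5 and 15.8 in the other Cre+ libraries, where Cre- mice ran from 15.9 to 18.1.

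The 7 subunits encoded in mitochondrial DNA, which form the proton-pumping core of the membrane arm, had log2 fold changes from -0.38 to -0.27, and their sum was 82938 ± 6408 CPM for Cre- against 66719 ± 3857 CPM for Cre+ (SD, n = 5 per group). Relative to the Cre- mean, their median log2 difference was -0.38 in the lettered and -0.23 in the other Cre+ libraries, where 6 of the 7 genes lay below that mean. For 4 of the 7, all lettered libraries lay below both others. Their ratio to the nuclear subunits was 7.55, 7.28, 6.98, 7.52 and 7.86 in Cre- and 5.21, 6.89, 6.52, 5.85 and 5.26 in Cre+ mice. All Cre+ mice lay below all Cre- mice, the nearest being the 2 libraries with no letter. This ratio sums genes picked with earlier results known, so no p is given. In Cre- mice, mt-Nd3 and mt-Nd4l had means of only 29.1 and 2.24 CPM, against 5767 to 21909.5 CPM for the others of the 7. They add little to the sum and the ratio, but each counts as 1 gene in the tallies above. edgeR called 0 of the 7 genes, with an unadjusted p under 0.05 for 5, and DESeq2 called 3. Of all genes tested, edgeR called 0.164%, with 12.3% at that unadjusted p, and DESeq2 called 1.22%.

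**Figure D5:**
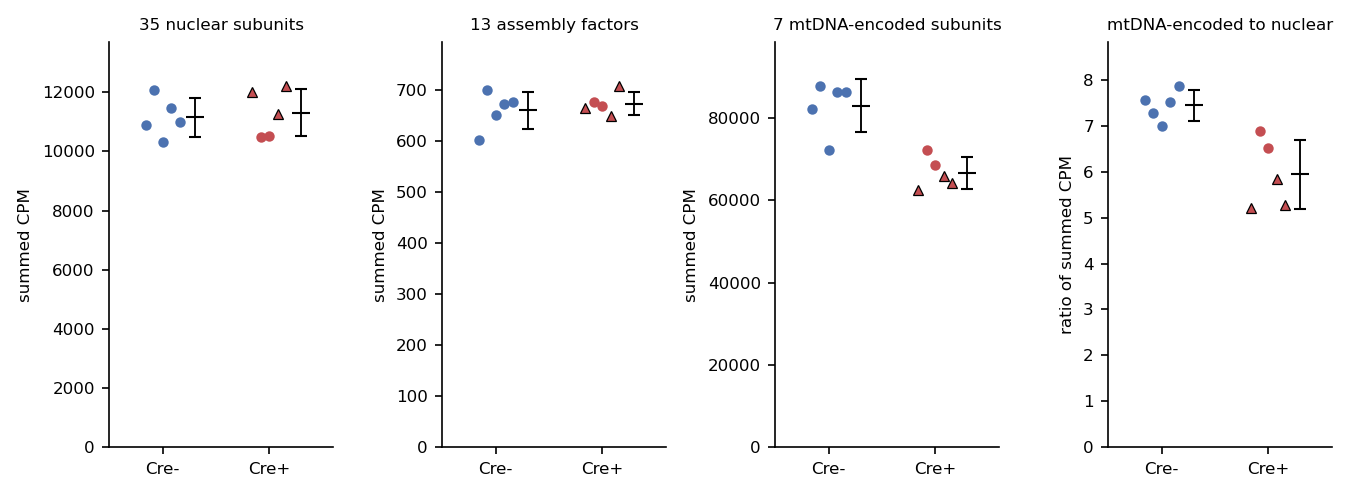
Summed CPM of the nuclear subunits, the assembly factors and the mtDNA-encoded subunits, and the ratio of mtDNA-encoded to nuclear subunits, by genotype. Points are mice (n = 5 per group), triangles the lettered libraries, bars the mean and SD. The ratios run from 6.98 to 7.86 in Cre- and from 5.21 to 6.89 in Cre+ mice.

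Other genes of the pathway were counted in the same fit with all libraries, and values without the lettered ones are not given for them. Of 9 further genes tied to complex I assembly, import or supercomplexes, 0 were called and Ndufaf8, the partner of Ndufaf5, had an unadjusted p under 0.05 (17.6 ± 1.39 against 21.1 ± 3.76 CPM in Cre- and Cre+, SD, n = 5 per group, with 0.27 as the log2 fold change). Of 12 enzymes that pass electrons to ubiquinone by other routes, such as Sdha of complex II, Gpd2 of the glycerol phosphate shuttle and Etfdh of fatty acid oxidation, 0 were called and 0 had an unadjusted p under 0.05 by edgeR, with a median of -0.02. Of 22 nuclear subunits of complexes III and IV, 0 were called, and Cox6a1, Cox7c and Uqcr11 were higher at an unadjusted p, with a median of 0.05 over the 22. By edgeR, 12.3% of all genes tested had an unadjusted p under 0.05, so these genes are not read as results about their lists.

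Regulators of respiratory genes were measured in the same libraries, again with all libraries only. Of 10 listed, 0 were called, Esrra, a nuclear receptor of mitochondrial genes, was higher at an unadjusted p (194 ± 13.7 against 224 ± 20.6 CPM in Cre- and Cre+, log2 fold change 0.21), and the coactivator Pprc1 lower (18.9 ± 2.06 and 13.7 ± 4.67 CPM, log2 fold change -0.47; SD, n = 5 per group). By edgeR, 12.3% of all genes tested had an unadjusted p under 0.05, so Esrra and Pprc1 are not read as a result about the regulators. Nrf1, Gabpa and Yy1, whose products bind promoters of respiratory genes, had 0.02, 0.11 and -0.05.

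The promoters of 43 members were matched in RefSeq (GRCm38.p6, 250 bases before to 50 bases after the start), in 45 windows. Ndufs1, Ndufa2, Ndufb9, Acad9 and Ndufaf6 were not matched. Windows of members had a median of 21 CpG dinucleotides and 59.3% G+C, against 7 and 52.7% over all 32851 windows. The YY1 core AAGATGGCG, searched on both strands like the others, was in 13.3% of member windows and 1.4% of all, and the NRF1 core GCGCATGCG in 8.89% and 1.75%. The ETS motif CCGGAAGT, which the factor encoded by Gabpa binds, was in 4.44% and 3.89%, and the ERR motif TCAAGGTCA in 0% and 0.423%. None of these motifs contains another, the NRF1 core overlaps its own reverse complement where the full palindrome occurs, and a match describes letters only.

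The stretches with the YY1 core are shown because it was the most frequent of the motifs among members. All 6 lay downstream of the start site, on the strand of the gene, with the first base at 18 to 36 bases from it, and the core (in capitals) contains an ATG. They are Ndufs7 at chr10:80249463-80249491 (plus strand), Ndufa9 at chr6:126849097-126849125, Ndufs4 at chr13:114388045-114388069, Ndufs6 at chr13:73328433-73328459, Ndufc1 at chr3:51408915-51408943 and Tmem126b at chr7:90475960-90475988 (all minus strand).
Ndufs7: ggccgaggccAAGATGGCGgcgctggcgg
Ndufa9: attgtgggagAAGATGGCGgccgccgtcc
Ndufs4: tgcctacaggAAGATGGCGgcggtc
Ndufs6: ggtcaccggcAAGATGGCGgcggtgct
Ndufc1: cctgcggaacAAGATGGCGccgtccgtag
Tmem126b: gtgaggcgctAAGATGGCGgcgtcccagc

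The NRF1 core (in capitals) was found in the subunits Ndufa8 and Ndufa11 and the assembly factors Ndufaf4 and Ndufaf5. Ndufa8, at chr2:36049329-36049357 on the minus strand, holds it on the opposite strand of the gene, so that its capitals show the reverse complement. The others are at chr17:56717692-56717720, chr4:24897960-24897988 and chr2:140170652-140170680, all on the plus strand.
Ndufa8: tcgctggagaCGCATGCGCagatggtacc
Ndufa11: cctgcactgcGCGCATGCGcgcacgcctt
Ndufaf4: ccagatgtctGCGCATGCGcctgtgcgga
Ndufaf5: agtcccgttgGCGCATGCGcctaatagaa

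Members that share the YY1 core differed in their values. The log2 fold changes were 0.19 for Ndufs7, -0.07 for Ndufa9, -0.05 for Ndufs4, 0.04 for Ndufs6, 0.09 for Ndufc1 and -0.05 for Tmem126b. The lettered libraries lay above both other Cre+ libraries for Ndufs7, Ndufs6 and Ndufc1 but below both for Ndufs4. The 4 genes with the NRF1 core had 0.03 for Ndufa8, 0.05 for Ndufa11, 0.12 for Ndufaf4 and -0.05 for Ndufaf5.

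Members lie on 17 chromosomes, with 6 on chromosome 17 and 2 on the X chromosome. In GRCm39, 19 share exon bases with another gene, and 4 share over 20%, namely Ndufaf2, Ndufb6, Ndufa13 and Ecsit. Ndufs3 and Ndufs5 have a near-identical copy elsewhere (98.6% and 99.4% identity over 75.7% and 60.8% of the transcript), and their values are uncertain because reads aligned to several places were not counted.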

How the data were processed

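iBAT RNA of 5 Cre- and 5 Cre+ mice was sequenced in read pairs. Per the submitters' processing notes and the file headers, the authors used Trimmomatic for trimming and STAR for alignment to GRCm39 (both of a version not given in the sources used here). They deposited raw counts per gene of GENCODE M28 from featureCounts 2.0.1. Mates were counted singly, strand was not used and reads aligned to several places were not counted. For RNA isolation, labels (RNeasy) and paper (PeqGOLD) name different kits. Symbols were matched for 94.0% of genes.

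edgeR 4.0.16 in R 4.3.3 was run on the counts of all genes with TMM scaling, filterByExpr (minimum count 10, minimum total 15), robust dispersions, its quasi-likelihood F test, p-values adjusted by Benjamini-Hochberg, and calls at an adjusted p under 0.05. SE is the size of the log2 fold change over the square root of F. Every member had at least 1185 counts in each library. DESeq2 1.42.0 was an alternative, beside other scalings, filters, a replicate block and left-out libraries. The length of the principal transcript was chosen as an alternative after seeing the data. Transcript lengths, G+C and copies (BLAST 2.17.0, at least 98% identity over at least 50% of the transcript) came from GENCODE M21. The fits were tested on simulated data. Samples were grouped by the genotype label.

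Members and gene lists were chosen with earlier results of these data known. Full values are given for the 6 members with the smallest p and the highest and lowest levels per length, and for Ndufs7, chosen after its values were seen. Other experiments of the paper were not analysed here.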

Additional observations from a re-analysis of the deposited data

Results flagged for a closer look

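For each of the 48 members and 5 summed measures, both genotypes were checked for a single library far from the other 4 (a gap over 0.71 of the range), which chance gives in about 1 of 20 groups, and 3 of 106 groups were found. Ndufs4 had 255 CPM in Cre- replicate 2, where the other Cre- libraries had 216 to 224 CPM. Ndufa3, a small membrane arm subunit, had 186 CPM in Cre- replicate 3, where the others had 234 to 240 CPM. Acad9, an assembly factor that derives from the acyl-CoA dehydrogenases, had 54.7 CPM in Cre- replicate 1, where the others had 67.5 to 72.3 CPM.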

How the results depend on the processing

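No member was called in any of 18 alternatives, and the lowest adjusted p of a member was 0.201 by edgeR (Ndufa13 without Cre+ replicate 2). Among all genes, 393 were called by DESeq2, 92 without a filter on low counts, 289 without the 2 libraries highest in muscle markers and 9 to 331 when leaving out each library in turn, the highest without Cre+ replicate 4 and the lowest without Cre+ replicate 1. Members at an unadjusted p under 0.05 by edgeR numbered 2 without a filter (1 higher, 1 lower) and 3 without the muscle libraries (all higher). They numbered 0 to 5 when leaving out each library, with 5 each without Cre- replicate 2 or Cre+ replicate 2 (4 higher, 1 lower) and 0 without Cre- replicate 4. Of all genes, 12.3% passed this threshold in the main fit. The share in the other settings is not given, so these counts are not read as results about the members. Without the 3 lettered libraries, which leaves 2 Cre+ mice, the median of the subunits was -0.08, and with each library left out it was 0.02 to 0.09, with -0.01 to 0.08 for the assembly factors (-0.01 without Cre- replicate 1).

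Without the lettered libraries the sign turned for 26 members: -0.17 for Ndufs7, -0.15 for Ndufa7, -0.13 for Ndufa11, -0.12 for Ndufa8, Ndufa12 and Ndufc2, -0.11 for Ndufb7, -0.10 for Ndufa6, -0.08 for Ndufs8, Ndufb11, Ndufs5 and Ndufaf3, -0.07 for Ndufv1 and Ndufb8, -0.06 for Ndufs3 and Ndufs6, -0.05 for Ndufv3, -0.04 for Ndufa13 and Ndufb9, -0.03 for Ndufa2 and Ndufab1, -0.02 for Ndufa1, Ndufc1 and Timmdc1, -0.01 for Ndufb2 and 0.0017 for Tmem126b. Without the muscle libraries it turned to 0.05 for Ndufa5, 0.01 for Ndufs4 and 0.02 for Ndufa3 and Ndufb3. The log2 fold change of Ndufa5, at -0.0018, also turned with DESeq2 (0.00072), DESeq2 size factors (0.0007) and scaling without mtDNA-encoded genes (0.0011). Leaving out single libraries turned Ndufs8 (-0.03 to 0.06), Acad9 (-0.01 to 0.09), Ndufaf7 (-0.02 to 0.04), Ndufa3 (-0.08 to 0.03), Ndufb3 (-0.06 to 0.01), Ndufa7 (-0.03 to 0.06), Ndufa12 (-0.02 to 0.06), Ndufa5 (-0.05 to 0.04), Ndufv1 (-0.0045 to 0.05), Ndufs5 (-0.0013 to 0.08) and Ndufa8 (-0.00096 to 0.07). None of these members had an unadjusted p under 0.05 with all libraries by edgeR, and the cause was not tested.

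The labels number mice 1 to 5 in each group. Same-numbered libraries correlated at -0.20 to 0.22 and 2 of 5 correlated best with their own number, so the numbers were not taken as pairs. With the replicate block, 0 members were called, 1 had an unadjusted p under 0.05, the medians were 0.05 for subunits and 0.06 for assembly factors, and 23 genes were called in all.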
